A study of Mus musculus with 24 samples.

Results

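The genes described here are 36 mouse genes that T lymphocytes and natural killer (NK) cells use to recognise targets, to kill them and to restrain themselves. They were taken by symbol: the T-cell receptor complex (Cd3e, Cd3d, Cd3g, Cd247, Trac and Trbc2), co-receptors (Cd4, Cd8a and Cd8b1), adhesion and costimulation receptors (Cd2, Cd5, Cd6, Cd28 and Icos), first signalling proteins (Lck, Zap70 and Lat), checkpoint and exhaustion genes (Pdcd1, Lag3, Tigit, Havcr2, Ctla4 and Tox), cytotoxic effectors (Nkg7, Gzma, Gzmb, Gzmk, Prf1 and Ifng), NK and cytokine receptors (Klrb1c, Ncr1, Klrk1, Klrd1 and Il2rb), and the T-box factors Eomes and Tbx21. All 36 were found among the 78298 gene IDs of the table. The study measured messenger RNA in whole liver from 6 normal control mice and 18 mice of a steatohepatitis model, a state in which the liver stores fat and is inflamed. Each mouse gave 1 library. The labels do not name the strain, sex, age, diet or time of either group, nor how the model was made.

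A T cell sees a peptide on an MHC molecule through its receptor, whose antigen-binding chains end in constant regions encoded by Trac and Trbc2. The CD3 chains and the zeta chain encoded by Cd247 carry the signal inwards, where the kinase LCK, brought in by CD4 or CD8, starts a relay through ZAP-70 and the adaptor LAT. CD8 T cells read MHC class I and kill with perforin and granzymes, CD4 T cells read MHC class II, and NK cells weigh activating against inhibitory receptors of their own. Long stimulation raises inhibitory receptors such as PD-1, TIGIT and TIM-3. Healthy liver is rich in NK cells and holds T cells in its sinusoids. In whole tissue, fewer cells of a type and less RNA per cell cannot be told apart.

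Libraries held 31600129 to 58413267 counts, so 3 counts stand for 0.0949 to 0.0514 CPM, the usual count scaled to library depth. Levels below are CPM with TMM factors, which correct for differences in RNA composition. Of 10 macrophage markers, 10 passed the test as higher in model livers, with a summed level of 35.6 to 80.5 CPM in controls and 191 to 930 CPM in model mice. Of 8 B and plasma cell markers 7 were higher (4.89 to 10.6 against 14.4 to 67.1 CPM), and of 8 dendritic cell markers 7 (101 to 133 against 129 to 216 CPM). Nearly all of the dendritic sum is Bst2 (mean 110 against 156 CPM), so the sum says little of the other markers. Zbtb46 was the dendritic marker that did not pass (4.01 against 4.17 CPM). Hepatocyte markers summed to 113125 to 176283 CPM in controls and 52808 to 111655 CPM in model mice, with 6 of 6 lower. Blood erythroid genes summed to 126 to 184 CPM in controls and 66.8 to 147 CPM in model mice, and 3 of 4 tested were lower. Of 6 tested neutrophil markers 5 were higher (0.629 to 6.11 against 3.95 to 15.9 CPM), of 6 stellate cell markers 6 (40.6 to 116 against 127 to 379 CPM), of 5 endothelial markers 4 (23.1 to 45.7 against 43.6 to 133 CPM), and of 3 tested platelet markers 1. The part of these other cells in the results below was not tested. Clock genes differed too: an index of them lay between -3.67 and -2.56 in model mice and between -1.43 and 0.58 in 5 controls, with control 6 at -3.98.

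T and NK cell genes were higher in the model livers, from low levels. A filter on low counts passed 33 of the 36 genes, and high levels in model mice alone were enough to pass it. No control reached its level for Pdcd1, Cd8b1, Gzmk, Tigit, Havcr2, Cd8a, Cd247, Klrd1, Ncr1, Cd5 or Tbx21. Fewer than all 6 controls reached it for Trac, Cd3e, Cd3d, Cd2, Cd6, Cd28, Icos, Lat, Nkg7, Gzmb, Prf1, Klrk1 or Klrb1c. The filter asks for that level in as many libraries as the smaller group holds. All the genes named here could thus be tested only because of their levels in model mice, which favours calls of higher. Of the 33 genes, 29 were higher, 0 were lower and 4 did not pass (edgeR quasi-likelihood F test with p adjusted by Benjamini-Hochberg over 17456 genes, threshold 0.05). With no filter 31 of the 36 were higher and 0 lower. At an unadjusted p below 0.05 the number lower was also 0, as it was with DESeq2 and limma-voom. Among all genes tested, 60% were called, 31.2% higher and 28.8% lower. Throughout, the log2 change is the fitted log2 fold change of model against control. Its median over the 33 was 1.38, against 0.01 for all genes tested. The 4 that did not pass were Gzma, Klrb1c, Lag3 and Tox. For 6 of the 33, all 18 model mice lay above all controls (Cd2, Cd247, Pdcd1, Havcr2, Klrk1 and Klrd1), where 9.67% of all genes did so; for 0 all model mice lay below, against 6.02%. At a log2 change of at least 1, 16.3% of all genes were called higher. The largest increases were those of Pdcd1, Cd8b1, Gzmk, Havcr2 and Cd8a. With the clock index as a covariate 23 were higher, as were 4064 of all 17456 genes. The calls of Zap70, Cd4, Lat, Ncr1, Gzmb and Tigit were lost. The index nearly separates the groups, and each of these standard errors grew, that of Cd4 from 0.28 to 0.47. The log2 change grew for Cd4 and Gzmb and shrank for Zap70, Lat, Ncr1 and Tigit. An effect of the clock and a loss of precision cannot be told apart here. Control 6, the 1 control whose index was near those of the model mice, lay below the model median for 29 of the 29 genes called higher and below all model mice for 16. These genes were called with control 6 in the test, so the counts are not a separate check on the clock. The same share over all called genes was not taken.

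**Figure D1:**
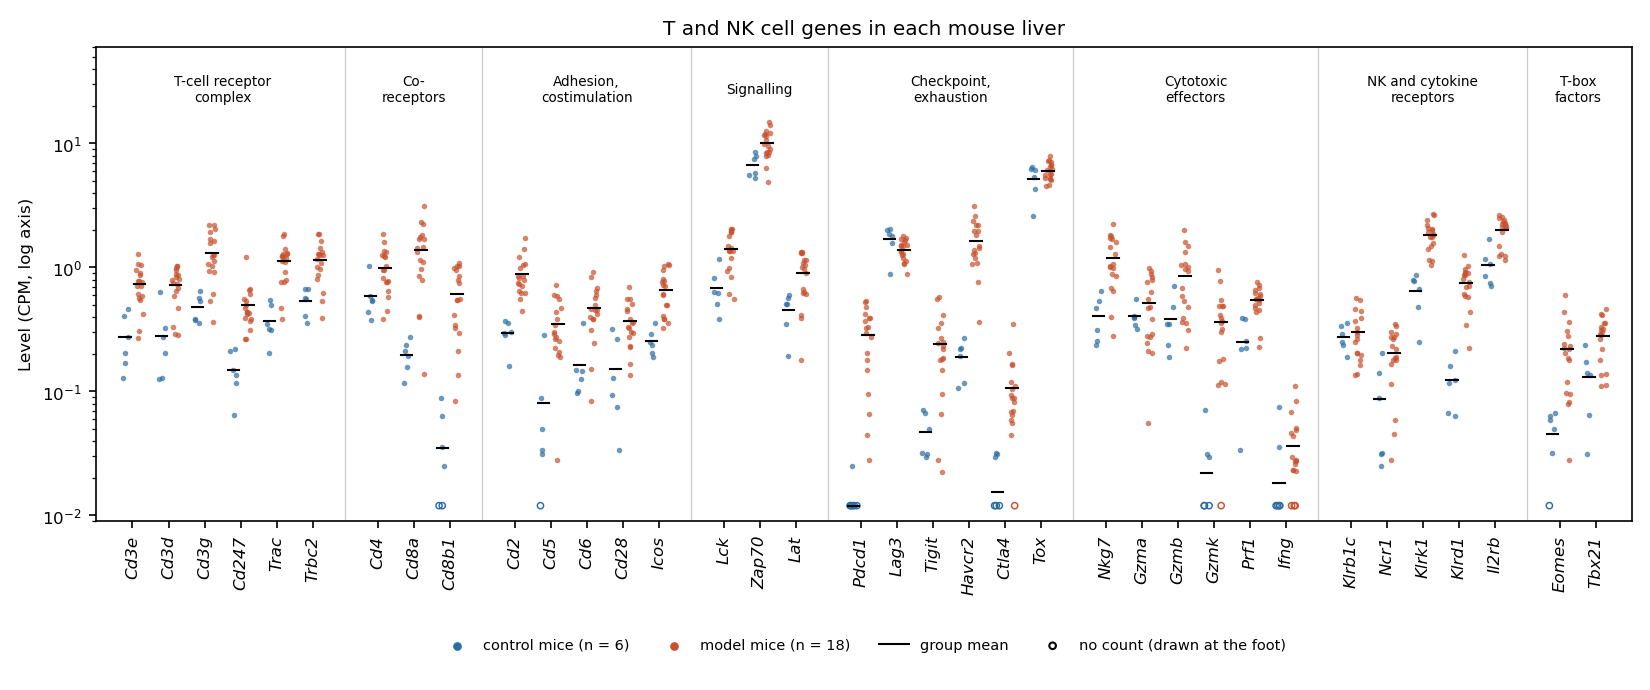
Level of each of the 36 genes in every mouse, in TMM-scaled CPM on a log axis; blue points are 6 controls, orange points 18 model mice, bars are group means and open points are libraries with no count. Most genes lie below 1 CPM in controls and shift upwards in the model group, whereas Zap70 and Tox stand above the rest in both groups.

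**Figure D2:**
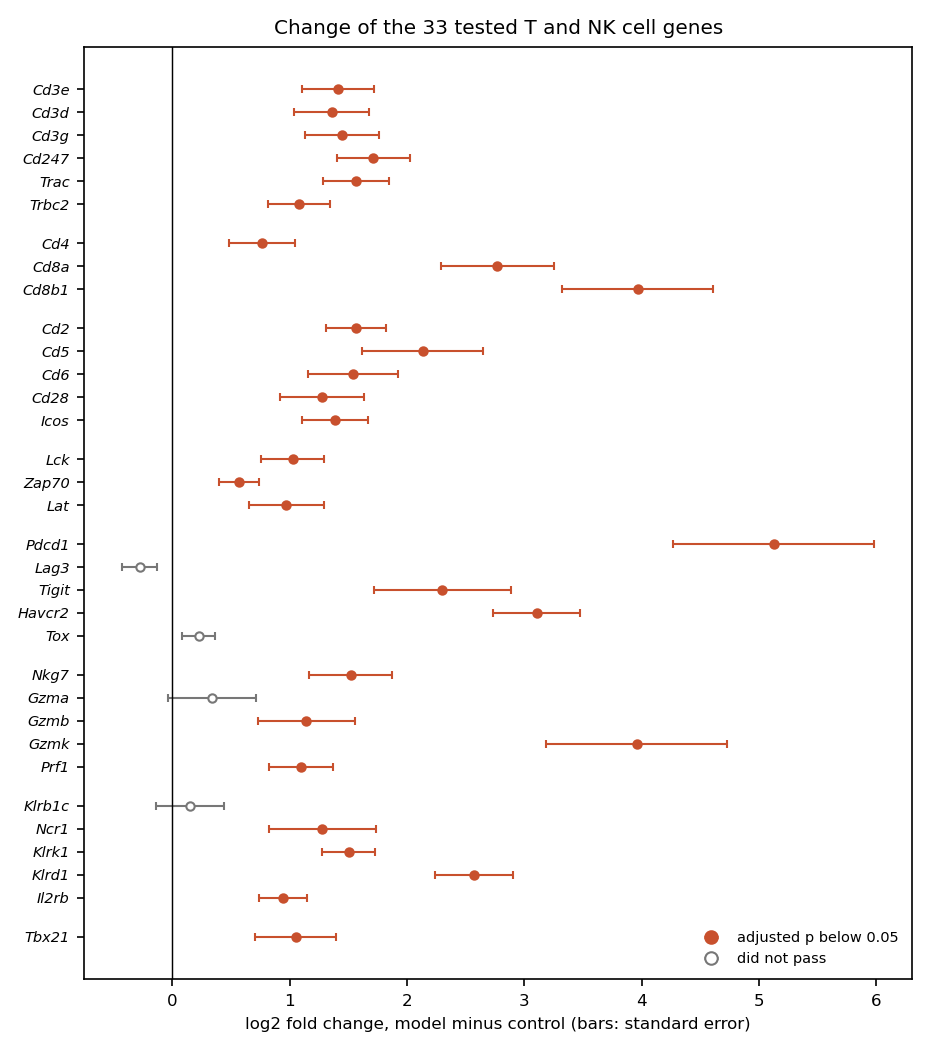
Log2 fold change (model minus control) with its standard error for the 33 genes that passed the filter, grouped by role; filled points passed the test. Pdcd1, Cd8b1 and Gzmk lie farthest to the right, and Lag3 is the 1 gene left of 0.

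The genes of the T-cell receptor complex rose together, by 2.12- to 3.28-fold, and 6 of 6 passed. Cd3g, Cd3d and Cd3e, which encode the gamma, delta and epsilon chains, lie side by side on chromosome 9 (GRCm39, 44880870 to 44920925), with 1.36 kb between Cd3g and Cd3d and 11.4 kb between Cd3d and Cd3e. Cd3e had 4, 9 and 13 counts in the lowest, median and highest control and 11, 32.5 and 59 in the model mice. The groups overlapped, with 15 of 18 model mice above all controls in CPM. Its level went from 0.275 ± 0.134 (SD, n = 6) to 0.732 ± 0.267 CPM (SD, n = 18), a log2 change of 1.41 (SE 0.31, adjusted p = 0.000272). Trac, the constant region of the alpha chain (chromosome 14, 54457978 to 54461663), had 6, 11 and 22 control counts and 17, 46 and 80 model counts. Model mice stood above all controls in 16 of 18 cases, and the log2 change was 1.57 (SE 0.28). Trbc2, the beta-chain constant region (1.08), has a near-identical neighbour, Trbc1, that can share its reads, so its value is uncertain. Cd247 (chromosome 1, 165616250 to 165704846) changed most in this group, from 2, 5 and 7 counts to 9, 19 and 52, with no overlap in CPM and a log2 change of 1.71 (SE 0.31). Cd3g and Cd3d had log2 changes of 1.44 and 1.36.

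The co-receptors differed in size of change: CD8 genes rose far more than Cd4. Cd8b1 and Cd8a, the beta and alpha chains of CD8, are neighbours on chromosome 6 (71299772 to 71314478 and 71350411 to 71356157, 35.9 kb apart). Cd8a had 4, 6 and 11 counts in controls and 5, 51.5 and 138 in model mice. Of the model mice 17 lay above all controls, and mouse 10, with 5 counts, lay within the range of the controls. Cd8a rose from 0.198 ± 0.0557 to 1.38 ± 0.755 CPM, a log2 change of 2.77 (SE 0.48, adjusted p = 2.11e-05). Cd8b1 had 0, 1 and 3 counts in controls, 7 in all, and 3, 22.5 and 57 in model mice, 468 in all. Again 17 model mice stood above all controls and mouse 10 did not. Its fitted log2 change was 3.97 (SE 0.64), and the pooled counts gave a ratio of 16.8 (exact 95% interval 8.07 to 41.9, counting error only). With the clock index the log2 change was 4.64. Cd4 (chromosome 6, 124841655 to 124865184) had 12, 17.5 and 32 counts in controls and 16, 43.5 and 84 in model mice. The groups overlapped widely, with 7 of 18 model mice above all controls. Cd4 went from 0.586 ± 0.231 to 0.997 ± 0.396 CPM (log2 change 0.76, SE 0.28, adjusted p = 0.0214). Its call was lost without control 5 (0.66, adjusted p = 0.0639) or control 6 (0.69, adjusted p = 0.0545), with limma-voom (0.70, adjusted p = 0.0514), with the clock index (0.90, adjusted p = 0.125) and over the 12 mice numbered 1 to 6 (0.66, adjusted p = 0.0527). Mouse dendritic cells also carry co-receptors, and 7 of 8 of their markers were higher as well. Their part in the levels of Cd4 and Cd8a was not tested.

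The ratio of Cd8a to Cd4 within each mouse needs no library scaling. It compares transcripts of whole liver and is not a count of CD8 against CD4 T cells. Cd8a had fewer counts than Cd4 in 6 of 6 controls and more in 13 of 18 model mice. The log2 ratio was -1.46 ± 0.63 in controls (lowest -2.32, median -1.22, highest -0.85) and 0.29 ± 0.82 in model mice (lowest -1.58, median 0.22, highest 1.61). It was above all controls in 16 of 18 model mice, a difference of 1.75 (two-sided exact permutation p = 0.000104, adjusted 0.000312 over 12 gene ratios). Cd8b1 to Cd4 differed by 2.95, with 18 of 18 model mice above all controls (exact permutation p = 7.43e-06, the smallest that 134596 divisions can give, adjusted 8.92e-05). That difference was 1.93 with 2 counts added and 3.89 with 0.1 added in place of 0.5. Against Cd3e, a gene of all T cells, Cd8a rose (difference 1.07, adjusted exact permutation p = 0.00602) and Cd4 fell (-0.68, adjusted exact permutation p = 0.0308). The Cd4 to Cd3e ratio was higher in control 3 than in the others, and without that mouse the difference was -0.33 (adjusted exact permutation p = 0.19). It did not pass either without control 1 (-0.61, adjusted exact permutation p = 0.0825) or control 6 (-0.65, adjusted exact permutation p = 0.0677), or with 2 counts added (-0.57, adjusted exact permutation p = 0.0526). Cd8b1 gained on Cd8a by 1.19 (adjusted exact permutation p = 0.00789), from 7 control counts of Cd8b1, but by 0.36 with 2 counts added to each gene (adjusted exact permutation p = 0.231) and by 2.07 with 0.1 added.

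**Figure D3:**
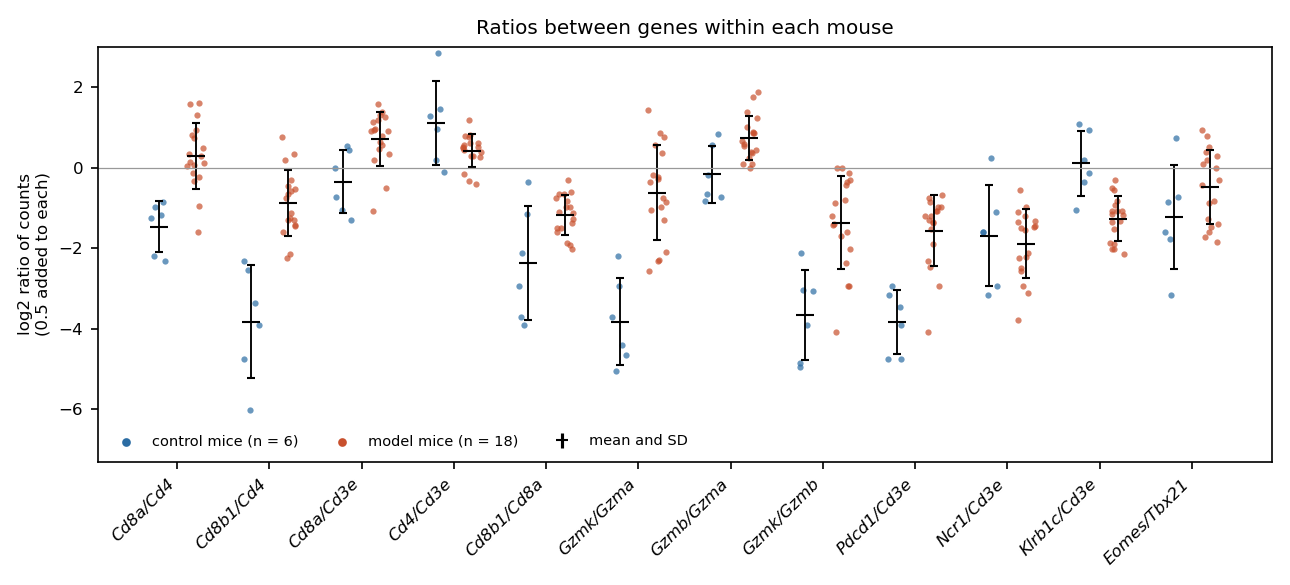
Log2 ratio of the counts of 2 genes in the same mouse, with 0.5 added to each count, for 12 pairs; blue points are controls, orange points model mice, and bars show the mean and SD. The ratios of Cd8a and Cd8b1 to Cd4, of Gzmk to Gzma and of Pdcd1 to Cd3e are shifted upwards in model mice, and Klrb1c to Cd3e downwards.

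Adhesion and costimulation receptors rose, 5 of 5, with log2 changes from 1.28 for Cd28 to 2.13 for Cd5. Cd2, an adhesion receptor of T and NK cells (chromosome 3, 101183215 to 101195255), had 5, 9.5 and 15 counts in controls and 16, 36 and 74 in model mice. The groups did not overlap, and the log2 change was 1.57 (SE 0.26). Cd5 and Cd6, neighbouring genes for scavenger-type receptors that tune the T-cell signal (chromosome 19, 50.3 kb apart), were each high in control 4, at 8 and 10 counts where the control medians were 1.5 and 4.5. Without that control the log2 change of Cd5 was 2.99. That of Cd28 was 2.17 with the clock index. Cd28 and Icos, the costimulatory receptors, lie on chromosome 1 on either side of Ctla4 (60755959 to 61039479). Icos had 6, 8.5 and 10 counts in controls and 11, 28.5 and 49 in model mice. Its groups overlapped by 1 model mouse in CPM, mouse 8, and the log2 change was 1.38 (SE 0.28, adjusted p = 0.000139).

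The signalling genes rose, 3 of 3. Lck and Lat rose by 2.04- and 1.96-fold (log2 changes 1.03 and 0.97). The call of Lat was lost with limma-voom (0.88, adjusted p = 0.0503) and with the clock index (0.86, adjusted p = 0.192). Zap70, the kinase that binds phosphorylated CD3 chains (chromosome 1, 36800879 to 36821899), stood apart in level. It had 149, 223.5 and 263 counts in controls and 279, 402 and 742 in model mice, with 13 of 18 model mice above all controls. Per kilobase of exon its level was 2.26 ± 0.46 CPM in controls, against 0.235 ± 0.0946 for Lck and 0.0673 ± 0.0329 for Cd3e, and it ranked first of the 36 genes in both groups. Its log2 change was 0.57 (SE 0.17, adjusted p = 0.00617), the smallest among the genes called, and its call was lost with the clock index (0.30, adjusted p = 0.389) and over the 12 mice numbered 1 to 6 (0.40, adjusted p = 0.14). Over the 18 model mice no relation of Zap70 to Cd3e was detected (Pearson r = 0.0024, permutation p = 0.992; Spearman rho = -0.011, permutation p = 0.967; r = -0.20 without the 2 mice with the farthest Cd3e levels), whereas Lck was related to it (Pearson r = 0.94, permutation p = 1e-05; Spearman rho = 0.92, permutation p = 1e-05; r = 0.87 without those 2 mice). Adjusted over 8 pairs chosen after the values were seen, the permutation p for r is 0.992 for Zap70 and 4e-05 for Lck, where 1e-05 is the smallest the resampling can give.

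Among checkpoint and exhaustion genes 3 of 5 tested rose, and Lag3 and Tox did not pass. Pdcd1, which encodes PD-1 (chromosome 1, 93966027 to 93980278), had 1 count over the 6 controls, in control 2, and 219 over the model mice, with 1, 12.5 and 23 in the lowest, median and highest. Model mouse 10 also had 1 count, so its place above control 2 rests on library scaling alone. The pooled ratio was 54.9 (exact 95% interval 9.75 to 2179), and the fitted log2 change of 5.13 (SE 0.86, adjusted p = 1.19e-05) depends on the prior count. It was 6.53 without control 2 and 3.66 with limma-voom. Relative to Cd3e, Pdcd1 was above all controls in 16 of 18 model mice, by 2.27 on the log2 scale (adjusted exact permutation p = 0.000312). With Pdcd1 at 0 in 5 of 6 controls this size depends on the 0.5 added to each count: it was 0.87 with 2 added, 4.14 with 0.1 added and 4.35 from counts pooled over each group. Tigit, an inhibitory receptor shared by T and NK cells (chromosome 16, 43469230 to 43484509), had 1, 1.5 and 2 counts in controls and 1, 9.5 and 25 in model mice. It overlapped the controls in 3 model mice and had a log2 change of 2.30 (SE 0.58), with the call lost under the clock index (1.77, adjusted p = 0.109). Over the model mice Pdcd1 and Tigit moved together (Pearson r = 0.94, permutation p = 1e-05; Spearman rho = 0.88, permutation p = 2e-05; r = 0.88 without 2 mice; adjusted 4e-05 and 8e-05). Ctla4, the inhibitory partner of Cd28, did not pass the filter. It had 0, 0.5 and 1 counts in controls and 0, 4 and 15 in model mice, 3 against 82 in all, a ratio of 6.85 (exact 95% interval 2.26 to 33.9). Its level in CPM was above all controls in 17 of 18 model mice. With no filter its log2 change was 2.58 (adjusted p = 0.00304).

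Havcr2, the TIM-3 gene (chromosome 11, 46345762 to 46372082), had 3, 6.5 and 9 counts in controls and 13, 62.5 and 135 in model mice. No model mouse overlapped the controls, and the level went from 0.189 ± 0.0644 to 1.65 ± 0.693 CPM (log2 change 3.11, SE 0.37, adjusted p = 7.88e-08). TIM-3 is also made by macrophages and dendritic cells. Across the model mice Havcr2 was related to Adgre1, the F4/80 macrophage gene (Pearson r = 0.54, permutation p = 0.0183; Spearman rho = 0.53, permutation p = 0.0265; r = 0.44 without 2 mice; adjusted 0.0293 and 0.0529), and to Cd3e (Pearson r = 0.59, permutation p = 0.0115; Spearman rho = 0.46, permutation p = 0.0560; adjusted 0.0230 and 0.0896). The relation to Cd3e rests on mice 9 and 10, without which r was 0.12.

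Lag3, an inhibitory receptor that binds MHC class II (chromosome 6, 124881324 to 124888668, 16.1 kb from Cd4), had 25, 61 and 72 counts in controls and 32, 59.5 and 91 in model mice. The groups overlapped throughout, with 0 of 18 model mice above all controls. Its log2 change was -0.28 (SE 0.15, adjusted p = 0.112). It was -0.41 without control 4, the lowest control (adjusted p = 0.0147), and 0.06 with library totals alone, a scaling that moves the median of all genes to 0.34. Tox, a nuclear factor of exhausted and developing T cells (chromosome 4, 6686353 to 6991557), had 88, 178 and 202 counts in controls and 166, 247 and 384 in model mice. It overlapped in 11 model mice, with 5.17 ± 1.50 against 6.04 ± 0.99 CPM (log2 change 0.22, SE 0.14, adjusted p = 0.176), and passed with library totals alone (0.55) or upper-quartile factors (0.32). Per kilobase of exon Lag3 and Tox ranked 2 and 4 among the 36 genes in controls, at 0.800 ± 0.201 and 0.680 ± 0.197 CPM, levels that did not differ beyond their spread. In model mice neither passed a test of relation to Cd3e (Lag3: Pearson r = 0.34, permutation p = 0.164, Spearman rho = 0.26, permutation p = 0.293, r = 0.028 without 2 mice; Tox: Pearson r = 0.14, permutation p = 0.590, Spearman rho = -0.05, permutation p = 0.856, r = -0.17 without 2 mice; adjusted permutation p for r 0.219 and 0.674).

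Cytotoxic genes rose unequally: Gzmk strongly, Nkg7, Gzmb and Prf1 by 2.14- to 2.87-fold, and Gzma not beyond its error. Granzymes are serine proteases that killer cells pass into their targets through pores made of perforin, the product of Prf1. Gzma and Gzmk are neighbours on chromosome 13 (113230359 to 113237515 and 113308142 to 113362442, 70.6 kb apart), and Gzmb lies on chromosome 14 (56496295 to 56499717). The windows from 250 bases before to 50 after their start sites, and that of the granule membrane gene Nkg7, are given from RefSeq (build GRCm38.p6, an earlier build than that of the counts), because these genes sit in the same granules but differed in their change. Capitals mark matches on either strand to the letters TGTGGT (RUNX factors), GGTGTGA (T-box factors), TGANTCA (AP-1) and CAGGAA (ETS factors).
Gzma (chr13:113100932-113101231, strand -): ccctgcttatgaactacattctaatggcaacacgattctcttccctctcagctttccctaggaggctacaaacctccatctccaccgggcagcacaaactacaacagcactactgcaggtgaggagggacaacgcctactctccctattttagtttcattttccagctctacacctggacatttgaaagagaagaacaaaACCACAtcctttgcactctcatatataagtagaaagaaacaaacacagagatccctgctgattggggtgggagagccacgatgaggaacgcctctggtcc
Gzmk (chr13:113180916-113181215, strand -): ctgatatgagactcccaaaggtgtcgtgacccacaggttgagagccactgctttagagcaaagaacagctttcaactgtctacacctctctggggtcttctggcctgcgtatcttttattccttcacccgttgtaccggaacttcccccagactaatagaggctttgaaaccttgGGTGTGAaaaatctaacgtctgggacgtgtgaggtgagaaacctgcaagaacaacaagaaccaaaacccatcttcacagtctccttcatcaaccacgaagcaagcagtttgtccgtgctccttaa
Gzmb (chr14:56262285-56262584, strand -): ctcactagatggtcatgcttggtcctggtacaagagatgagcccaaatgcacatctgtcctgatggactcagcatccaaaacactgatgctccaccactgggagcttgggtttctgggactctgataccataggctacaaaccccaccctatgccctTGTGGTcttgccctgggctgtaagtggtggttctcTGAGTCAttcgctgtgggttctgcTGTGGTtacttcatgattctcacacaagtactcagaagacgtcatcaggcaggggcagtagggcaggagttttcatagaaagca
Nkg7 (chr7:43436888-43437187, strand +): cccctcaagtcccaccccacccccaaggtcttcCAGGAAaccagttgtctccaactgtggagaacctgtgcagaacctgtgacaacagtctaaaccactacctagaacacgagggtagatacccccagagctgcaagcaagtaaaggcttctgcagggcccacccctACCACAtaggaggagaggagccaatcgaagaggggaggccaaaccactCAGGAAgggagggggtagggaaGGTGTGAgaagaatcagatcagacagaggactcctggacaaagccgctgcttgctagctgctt

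The Gzmk window held a T-box match and no RUNX match, the Gzma window a RUNX match only, the Gzmb window 2 RUNX matches and 1 AP-1 match, and the Nkg7 window RUNX, T-box and ETS matches. RefSeq windows were found for 24 of the 36 genes, 28 windows in all, some of them overlapping windows of the same gene. The RUNX letters occurred in 13 of the 28 (46.4%) against 16.8% of all 32851 windows, and the ETS letters in 14 (50%) against 30.6%. T-box letters occurred in 2 (7.14% against 3.98%) and AP-1 letters in 3 (10.7% against 7.81%). These matches describe letters and are not binding sites. The windows of Pdcd1, Cd8a, Cd3g, Ctla4, Eomes and Ifng held none of the 4.

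Gzma had 10, 11.5 and 19 counts in controls and 2, 19.5 and 38 in model mice. Model mice lay above all controls in 7 of 18 cases, and some lay below, with mouse 10 lowest. The level was 0.403 ± 0.0826 against 0.517 ± 0.293 CPM, a log2 change of 0.34 (SE 0.38, adjusted p = 0.448). Gzmk had 0, 0.5 and 2 counts in controls, 4 in all, and 0, 15.5 and 41 in model mice, 283 in all. Of the model mice 17 lay above all controls, and mouse 10 had no count. The log2 change was 3.96 (SE 0.77, adjusted p = 8.63e-05), and the pooled ratio 17.7 (exact 95% interval 6.85 to 65.6). The log2 change was 4.61 without control 4, which held 2 of the 4 control counts, and 3.29 with limma-voom. Gzmb, the granzyme that cleaves caspases, had 6, 13 and 20 counts in controls and 8, 32.5 and 86 in model mice. It was above all controls in 9 of 18 model mice (log2 change 1.14, SE 0.41, adjusted p = 0.0197), and the call was lost without control 5 (1.00, adjusted p = 0.0559), with limma-voom (0.97, adjusted p = 0.0696) and with the clock index (1.22, adjusted p = 0.193). Within mice the log2 ratio of Gzmk to Gzma rose from -3.82 ± 1.09 to -0.62 ± 1.18, a difference of 3.20 with 15 of 18 model mice above all controls (exact permutation p = 2.97e-05, adjusted 0.000178). It was 2.03 with 2 counts added and 4.37 with 0.1 added. Gzmb to Gzma differed by 0.90 (adjusted exact permutation p = 0.00602). Gzma and Gzmb moved together across model mice (Pearson r = 0.84, permutation p = 2e-05; Spearman rho = 0.80, permutation p = 0.00011; r = 0.82 without 2 mice; adjusted 5.33e-05 and 0.000293). Granzyme genes have close relatives that can share reads, which leaves single values uncertain.

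Prf1 and Nkg7 had log2 changes of 1.10 (SE 0.27) and 1.52 (SE 0.35), each with 16 of 18 model mice above all controls. With the clock index Prf1 had 2.05. Ifng, the interferon-gamma gene (chromosome 10, 118276951 to 118281797), did not pass the filter. It had 4 counts over the controls, with 4 of 6 at 0, and 29 over the model mice, with 3 of 18 at 0. Model mouse 15 was highest at 5 counts and control 2 at 3, so the groups overlapped. The pooled ratio was 1.82 (exact 95% interval 0.638 to 7.12), so a difference was not detectable at this depth.

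Of the NK and cytokine receptors 4 of 5 rose, and Klrb1c did not pass. Klrb1c encodes NK1.1, the classical NK cell antigen of some mouse strains (chromosome 6, 128755448 to 128766178), and had 6, 9.5 and 10 counts in controls and 5, 12.5 and 26 in model mice. The groups overlapped, with 6 of 18 model mice above all controls, at 0.276 ± 0.0638 against 0.303 ± 0.136 CPM (log2 change 0.15, SE 0.29, adjusted p = 0.667). Relative to Cd3e it fell by 1.37 on the log2 scale, with 13 of 18 model mice below all controls (exact permutation p = 0.000178, adjusted 0.000428). Ncr1, which encodes NKp46, an activating receptor of NK cells and related innate cells (chromosome 7, 4340723 to 4348163), had 1, 2 and 6 counts in controls and 1, 9.5 and 20 in model mice. It was above all controls in 9 of 18 model mice (log2 change 1.28, SE 0.45, adjusted p = 0.017). The call was lost without control 2 (1.06, adjusted p = 0.0574) or control 5 (1.11, adjusted p = 0.0502) and with the clock index (0.75, adjusted p = 0.356). The ratio of Ncr1 to Cd3e differed by -0.19 (adjusted exact permutation p = 0.67).

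Klrd1 and Klrk1, which encode CD94 and NKG2D and lie 11.5 kb apart on chromosome 6, are also made by CD8 T cells. Klrd1 had 2, 4.5 and 6 counts in controls and 8, 30.5 and 61 in model mice, and Klrk1 had 8, 21 and 35 against 38, 79 and 116. Neither pair of groups overlapped, and the log2 changes were 2.57 (SE 0.33, adjusted p = 2.36e-07) and 1.50 (SE 0.23, adjusted p = 2.67e-06). Il2rb, the receptor chain shared by interleukins 2 and 15, had a log2 change of 0.95 (SE 0.20) with 13 of 18 model mice above all controls. Of the T-box factors, which direct killer cell programmes, Tbx21 rose (1.05, SE 0.34, adjusted p = 0.0103), with the call lost over the 12 mice numbered 1 to 6 (0.98, adjusted p = 0.0714). Eomes did not pass the filter, with 9 control counts against 176, a pooled ratio of 4.90 (exact 95% interval 2.53 to 10.9). Its level was above all controls in 17 of 18 model mice, and with no filter its log2 change was 2.22 (adjusted p = 0.00069). The ratio of Eomes to Tbx21 differed by 0.76 (adjusted exact permutation p = 0.14), and by 1.15 without control 5 (adjusted exact permutation p = 0.0258).

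Other genes of these pathways, listed by function, were mostly higher as well, where 31.2% of all genes were called higher and 28.8% lower. Which cells made them was not tested. Of 24 further T-cell signalling genes 18 were tested and 17 rose, with a median log2 change of 1.91, led by the interleukin 7 receptor gene Il7r (3.61). Several of them, such as Ptprc, Vav1 and Lcp2, are active in other blood cells. Of 18 other cytotoxic genes 9 were tested and 9 rose, led by the chemokine gene Ccl5 (2.57) and the granule proteoglycan gene Srgn (2.46), and 9 did not pass the filter, among them Gzmm and Fasl. Of 16 further checkpoint genes 13 were tested and 11 rose, led by Tnfrsf9, the 4-1BB gene, with 3 control counts against 144, and by Lair1 (2.89). Of 12 genes of naive and resident T cells 9 rose, among them the adhesion receptor gene Cd44 (2.81), while Itgae, the CD103 gene of epithelial-resident T cells, had a log2 change of 0.15 (adjusted p = 0.669). Of 11 tested regulators of T-cell subsets 6 rose, led by Runx3 (3.13), a factor of CD8 and killer cells, and Prdm1 (2.64). Zbtb16 fell (-3.47), from a level in control liver of 28.1 CPM, far above those of the receptor genes. Foxp3, the factor of regulatory T cells, did not pass the filter, with 10 control counts against 150. Of 21 further NK-complex receptor genes 2 passed the filter, and Klra2 (2.21) and Klrb1b (2.04) rose. These genes have close copies and their single values are uncertain. None of the gamma-delta T-cell genes in the table passed: Trdc had 9 control counts against 64, and Il17a had 0 in both groups.

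Of 26 tested genes for ligands or partners of these receptors 14 rose and 5 fell, where 31.2% of all genes were called higher and 28.8% lower. Cd274, the PD-L1 gene, went from 0.809 to 5.01 CPM (log2 change 2.62, SE 0.25), with no overlap between groups. The CD28 and CTLA-4 ligands Cd80 (1.64) and Cd86 (2.57), the ICOS ligand Icosl (1.76), the CD2 ligand Cd48 (2.78) and the cytokine gene Il15 (1.81) rose, as did the NKG2D ligands Ulbp1 (2.24) and Raet1d (1.17). MHC class II genes, whose products bind CD4 and LAG-3, rose by 3.20 to 3.60 on the log2 scale. Macrophages and dendritic cells, most of whose markers were higher, can make several of these. The cells of origin were not tested. Some ligand genes with high levels in control liver were lower. Fgl1, a hepatocyte-secreted ligand of LAG-3, fell by 0.61 on the log2 scale (644 against 423 CPM) and Ceacam1, a partner of TIM-3, by 0.67, and the TIGIT ligand Nectin2 by 0.46. With library totals alone these values were -0.27 (adjusted p = 0.197), -0.35 (adjusted p = 0.000143) and -0.13 (adjusted p = 0.229), so the calls of Fgl1 and Nectin2 depend on scaling. The TIGIT ligand Pvr rose by 0.75 with TMM factors. H2-T23, the ligand of the CD94 receptors, had a log2 change of 0.07 (adjusted p = 0.46), which library totals alone turned into a call of 0.40.

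**Figure D4:**
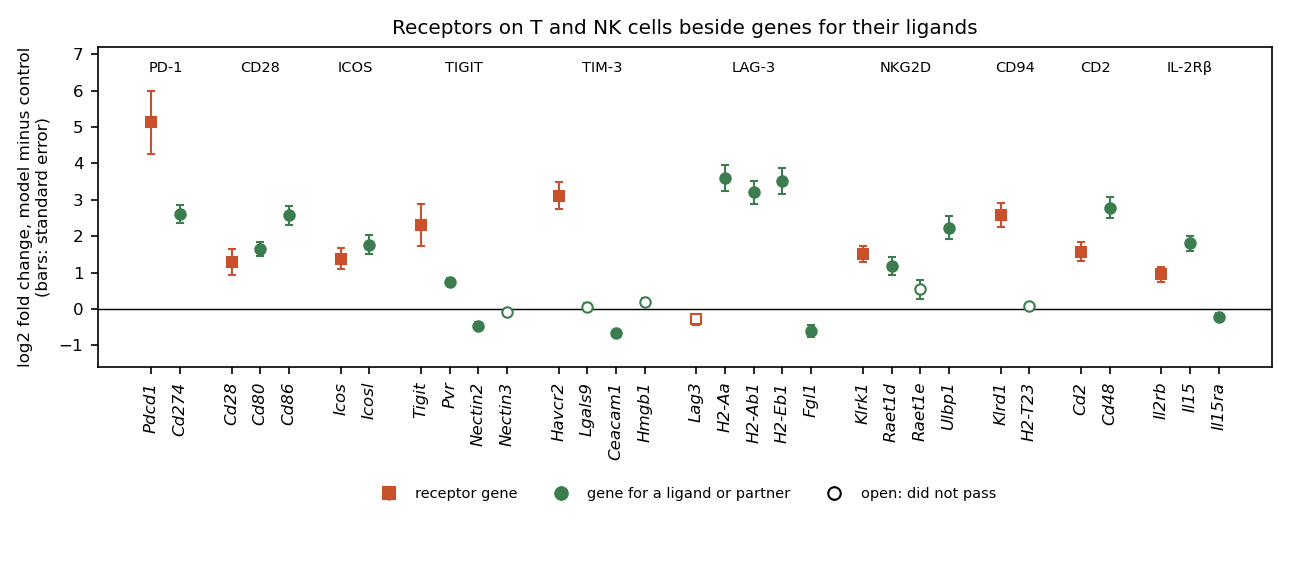
Log2 fold change (model minus control) with its standard error for receptor genes (squares) and for genes of their ligands or partners (circles), with TMM factors; open symbols did not pass. The PD-1, CD28, ICOS and CD2 genes and their ligands lie above 0 together, while Lag3 and H2-T23 lie near 0 and Ceacam1, Fgl1 and Nectin2 below it.

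The model mice differed widely among themselves. The highest model mouse exceeded the lowest by 22.5-fold for Cd8a, by 25.8-fold for Tigit and by 13.0-fold for Cd8b1, but by 2.01-fold for Lag3, 1.75-fold for Tox and 3.04-fold for Zap70. Counts of this size carry sampling error of their own. Mouse 10 was lowest for 20 of the 33 genes and mouse 9 for 6, and mouse 17 was highest for 12. In mouse 10, 25 of the 33 genes did not exceed the highest control, in mouse 9, 21 and in mouse 12, 16. Mouse 10 also had 2.89 CPM of the collagen gene Col1a1, where the other model mice had 12.3 to 48.1, and the most Alb, the albumin gene, at 96563 CPM. Without mouse 10 the count of genes called higher was 29, as with it. Mouse 7 combined the highest Cd3e and Cd4 levels with 3 counts each of Pdcd1 and Tigit.

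**Figure D5:**
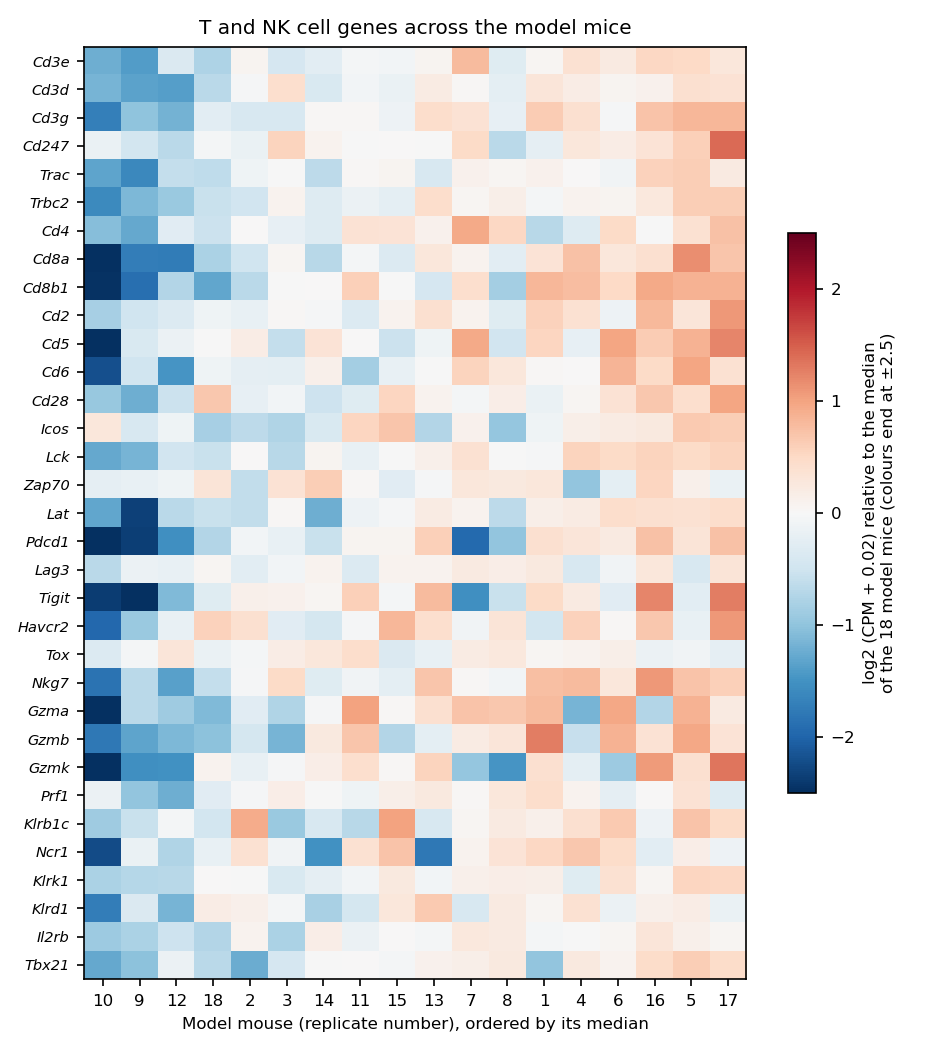
Level of the 33 genes in each of the 18 model mice, as log2 of CPM plus 0.02 relative to the median of the model mice; mice are ordered by their median over the genes. Mice 10, 9 and 12 are low across most genes and mouse 17 is high, while Tox and Lag3 vary least.

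Of 8 relations over the model mice, 5 had an adjusted permutation p below 0.05 for Pearson's r. Cd8a moved with Cd3e (r = 0.83, permutation p = 5e-05; rho = 0.83, permutation p = 6e-05; adjusted 0.0002 and 0.00036), and with Pdcd1 (r = 0.83, permutation p = 4e-05; rho = 0.83, permutation p = 9e-05; adjusted 0.0002 and 0.00036). Without mice 10 and 12, the farthest in Cd8a, r was 0.82 and 0.72. The relation of Cd8a to Gzmk (r = 0.79, permutation p = 0.00029, adjusted 0.000773; rho = 0.61, permutation p = 0.00921, adjusted 0.0246) had r = 0.52 without them, and that to Cd4 (r = 0.64, permutation p = 0.0037, adjusted 0.0074; rho = 0.45, permutation p = 0.0650, adjusted 0.115) had r = 0.54. The relation of Cd8a to Col1a1 (r = 0.66, permutation p = 0.00635, adjusted 0.0102; rho = 0.38, permutation p = 0.120, adjusted 0.145) rests on those 2 mice, since r was 0.18 without them. The remaining 3 did not pass: Cd3e with Ncr1 (r = 0.41, permutation p = 0.0857; rho = 0.31, permutation p = 0.207), Ncr1 with Gzma (r = 0.46, permutation p = 0.0537; rho = 0.43, permutation p = 0.0720) and Cd3e with Adgre1 (r = 0.43, permutation p = 0.0731; rho = 0.37, permutation p = 0.127). Their adjusted permutation p-values for r were 0.0857, 0.0716 and 0.0835, and r fell to 0.22, 0.32 and 0.20 without the 2 farthest mice.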

How the data were processed

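Messenger RNA of 24 livers was captured on oligo(dT) beads and sequenced, per the labels' protocols. The authors deposited unnormalised counts of reads for each Ensembl gene, on build GRCm39 per the submitters' processing notes. Aligner, counting software and strandedness: not given in the sources used here. Reads of overlapping and antisense genes therefore cannot be told apart. Symbols came from a reference table that matched 51498 of 78298 IDs (99.6% of counts), and for 58 symbols with several IDs the ID with most counts kept the symbol. No 2 libraries were alike within sampling noise: over 168 pairs within groups, chi-square divided by its degrees of freedom was at least 14.7.

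The main test was edgeR 4.0.16 (R 4.3.3) quasi-likelihood with robust dispersion, TMM factors and the default filter by group, on all 24 libraries, with Benjamini-Hochberg adjustment over all genes tested; the threshold was 0.05. A standard error is the size of a log2 change over the root of its F statistic. The labels do not say that mice were housed or processed apart, so p-values measure the spread between these mice. Gene ratios added 0.5 to each count and used a two-sided exact permutation test of the difference in means; 12 pairs form a family. Correlations used log2 CPM with a prior count of 2 and 100000 resamples in 2 families of 8 pairs, the second chosen after the values were seen. Levels per kilobase divide CPM by the table's summed exon length. Intervals cover counting error only. Other settings tried were factors by RLE or upper quartile, unscaled library totals, other filters, DESeq2 1.42.0, limma-voom (limma 3.58.1), a threshold of 0.01, a clock index (mean log2 CPM of Arntl, Npas2, Clock and Cry1 minus that of 9 genes including Dbp and Nr1d1), a block for the replicate number, and leaving out libraries in turn. Python 3.11.15, numpy 2.4.6, scipy 1.17.1, pandas 2.3.3 and matplotlib 3.10.9 were used. All 36 genes are named; of the other lists the called genes with the largest change and some further examples, chosen after their values were seen, are named. Some genes that this rule would name are not reported here. The genes and lists were chosen with earlier results of these data known.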

Additional observations from a re-analysis of the deposited data

Results flagged for a closer look

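Among the 6 controls, 36 gene levels and 12 gene ratios were checked for outlying mice. A mouse was flagged when its gap to its nearest neighbour was large for the range of the group, and 5 were found. With normally distributed values chance gives about 1 in 20, a rate that need not hold for counts this low. Cd4 stood at 1.03 CPM in control 3 (median of the others 0.533). Cd5 and Cd6 stood at 0.284 and 0.355 CPM in control 4 (median of the others 0.0338 and 0.126). Pdcd1 stood at 0.0248 CPM in control 2, from 1 count where the other controls had 0. With a single count in the group, that flag was bound to appear. Gzma stood at 0.558 CPM in control 1 (median of the others 0.391).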

How the results depend on the processing

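The count of T and NK cell genes called higher was 29 with RLE factors and with DESeq2, 30 with library totals and with upper-quartile factors, 26 with limma-voom, 24 at a threshold of 0.01, 31 of 36 with no filter, 22 of 25 with a filter of 0.5 CPM in 6 libraries, and 27 to 30 with a library left out. The count called lower was 0 to 1 with a library left out, the 1 being Lag3 without control 4, and 0 under the other settings. Over 1147 values of single genes under alternative settings, 1119 kept their direction and side of the threshold or were not called in either, 25 lost a call and 3 gained one; none of the called values changed sign. Library totals alone move the median log2 change of all genes from 0.01 to 0.34, with 9406 genes higher and 1562 lower in place of 5445 and 5035, and without a filter 43568 genes were tested.

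The labels do not say that replicate numbers pair the mice. Same-numbered control and model mice correlated between -0.38 and 0.10 in their deviations, which neither shows a pairing nor excludes one. With the number as a block, over controls and model mice 1 to 6, 26 genes were called higher, as without the block on those 12 mice, a setting chosen after seeing the data. The calls of Cd4, Zap70 and Tbx21 were lost both with the block (adjusted p = 0.0887, 0.0838 and 0.157) and without it. At a threshold of 0.01 the calls of Cd4, Lat, Ncr1, Gzmb and Tbx21 were lost. For ratios, sign flips within these 6 pairs cannot go below p = 0.0312, and 7 of 12 passed unadjusted but 0 after adjustment; the differences were 2.41 for Cd8a to Cd4 and 3.49 for Cd8b1 to Cd4 (both adjusted exact permutation p = 0.0536). With a library left out, 9 to 11 of the 12 ratios passed, with 1.58 to 1.88 for Cd8a to Cd4 and 2.51 to 3.25 for Cd8b1 to Cd4. Without the 2 farthest mice 2 of 8 relations passed, in fits with fewer mice. Depth limits Ifng, Ctla4, Eomes and the control values of Pdcd1, Gzmk and Cd8b1.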
